A study of Saccharomyces cerevisiae with 4 samples.

Results

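The autophagy genes of budding yeast described here are a fixed list of ATG genes numbered from ATG1 to ATG34. The list also holds VPS15, VPS30 (also called ATG6) and VPS34, while SNX4, also called ATG24, is outside it. The genes of the list were chosen by systematic gene name and not by their values, although earlier results of these data were known. All 32 were present among the 5799 genes of the table. The strain was Saccharomyces cerevisiae BY4741, a haploid of mating type a, with the labelled genotype MATa, his3Δ1, leu2Δ0, LYS2, met15Δ0 and a ura3 deletion that both the untreated and the acid-treated cells carried. Cells were grown in YPD, a rich medium, at 28 °C until the absorbance reached 0.6, and were either left untreated or exposed for 2 h to 30 mM acetic acid. RNA of both states was hybridised together on 4 two-colour arrays, which the design text calls biological replicates. The acid-treated RNA carried Cy5 on 2 of them, the first and the second Cy5 array, and Cy3 on the other 2, the first and the second Cy3 array, numbered as the labels number them.

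Autophagy is the route by which a cell wraps cytoplasm or organelles in a newly made membrane sac, the autophagosome, and delivers it to the vacuole, the yeast counterpart of the lysosome, for breakdown. The Atg1 kinase complex starts the process when nutrient signalling through the TORC1 kinase falls, Atg9 vesicles and a phosphatidylinositol 3-kinase supply and mark the membrane, and a pair of ubiquitin-like proteins, Atg8 and Atg12, are conjugated at the site. In growing cells part of the same machinery runs the Cvt pathway, which carries a few hydrolases to the vacuole. The amount of Atg8 is known to set the size of autophagosomes, and its gene is known in yeast to be turned up on nitrogen starvation.

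The values were log ratios of the channels, taken as base 2, and were read as acid over untreated. No source states the direction, which is therefore only likely: with it, HSP30 and YGP1, genes known to rise under weak acids, had mean log2 ratios of 5.53 ± 0.72 and 5.28 ± 0.90 (SD, n = 4). Read the other way, all signs below would turn. All 6 pairs of arrays correlated above 0 across genes, which are not independent replicates, with Pearson's r from 0.41 to 0.80. The lowest r, 0.41 and 0.47, were those of the first Cy3 array with both Cy5 arrays. Values were present for 5133 to 5505 genes per array, array medians lay between -0.03 and 0.01, and the standard deviation over genes was 1.05 on the first Cy3 array, against 0.70 to 0.81 on the others. No intensities were analysed here, which leaves the signal over background unknown, and the small number of arrays limits the precision. A ratio gives the share of a transcript in the RNA of the culture, so less RNA of a gene per cell and fewer cells with it cannot be told apart.

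Of the 32 autophagy genes, 24 had values on at least 3 arrays and were tested, 22 of them with 4 values, and 8 were not tested in this fit. Of these 8, 5 had 2 values (ATG1, ATG7, ATG11, ATG29 and VPS34) and entered another limma fit over 5592 genes with at least 2 values, in which none of the 5 passed (adjusted p from 0.109 to 0.641; ATG11 and ATG29 had unadjusted p of 0.0209 and 0.0378). Values on fewer than 3 arrays were thus found for 25.0% of the autophagy genes, against 8.76% of all genes in the table. The comparison of both states addresses the response of yeast gene expression to acid stress. Only ATG8 and ATG20 rose, and none of the tested members fell, at an adjusted p of 0.05 (limma, two-sided, Benjamini-Hochberg over 5291 genes). The share called was 2 of 24, or 8.33%, against 10.9% of all genes tested (8.85% higher and 2.02% lower, or 468 and 107 genes; 541 and 268 after quantile normalization). At an unadjusted p of 0.05 the members counted 4 higher and 3 lower, against a background of 17.7% higher and 12.2% lower. These shares are near those of all genes, so the count says nothing particular about the list.

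The median mean log2 ratio of the 24 tested members was -0.14, against -0.04 for all genes tested, and the median of its absolute size was 0.32, against 0.31. Means ran from -0.65 (ATG15) to 1.47 (ATG8), with 11 above 0 and 13 below, or 45.8% and 54.2%, against 46.7% and 53.3% of all genes tested. Values lay above 0 on every array that measured the gene for 6 members (background 22.5%) and below 0 on every such array for 7 (background 20.1%). A mean change of at least 2-fold upward was found for 1 member, ATG8 (background 5.56%), and of at least 2-fold downward for none (background 2.15%; 3 members were lower at an unadjusted p of 0.05 in limma). The median SD over arrays was 0.32 for members and 0.36 for all genes tested. The list's median moved to -0.0072 without the first Cy3 array and to -0.07 without the second Cy3 array.

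**Figure D1:**
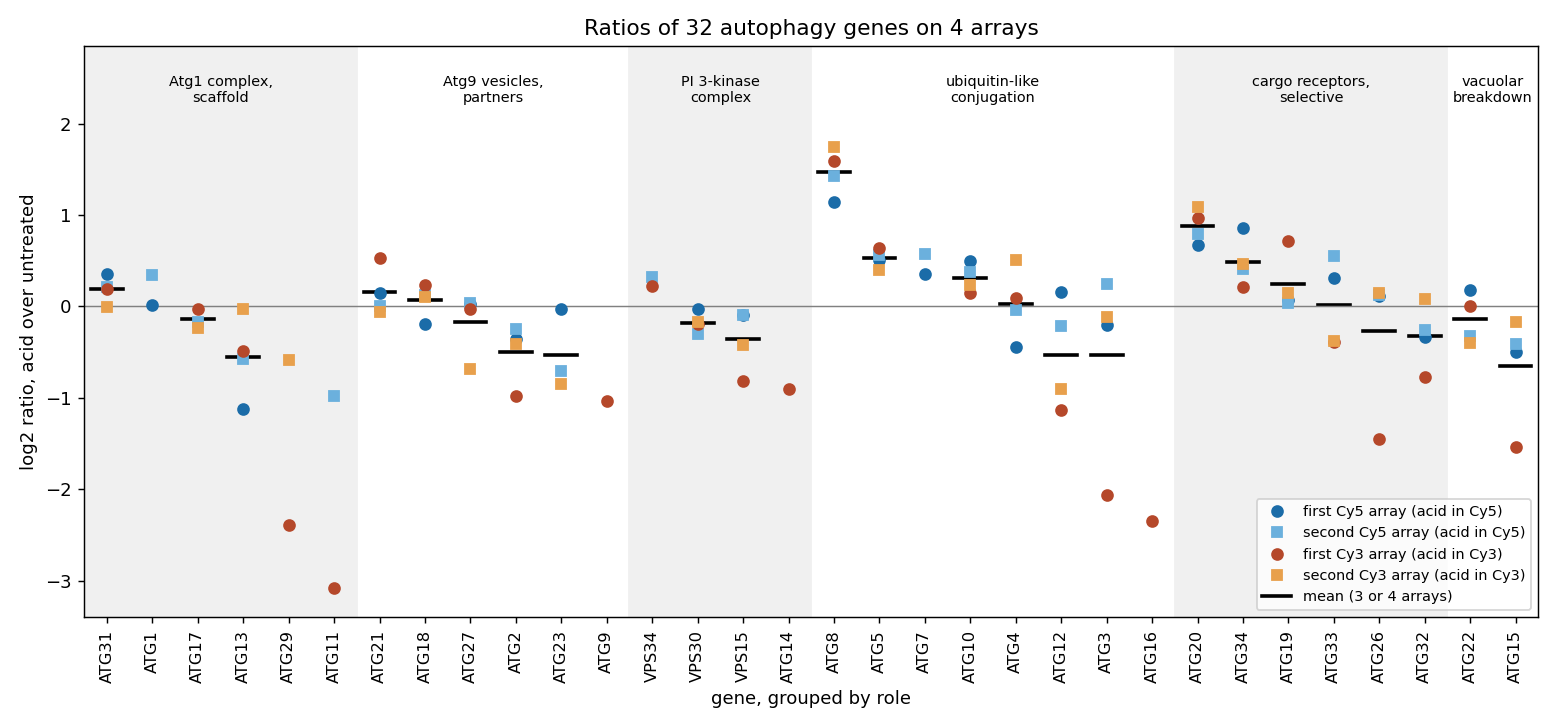
The log2 ratio (acid over untreated, vertical axis) of each of 32 autophagy genes on each of 4 arrays (symbols), grouped by role; black bars are means of genes with 3 or 4 values. The 4 values of ATG8 lie between 1.14 and 1.74, above those of every other member, while the values below -1.5 all belong to the first Cy3 array.

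**Figure D2:**
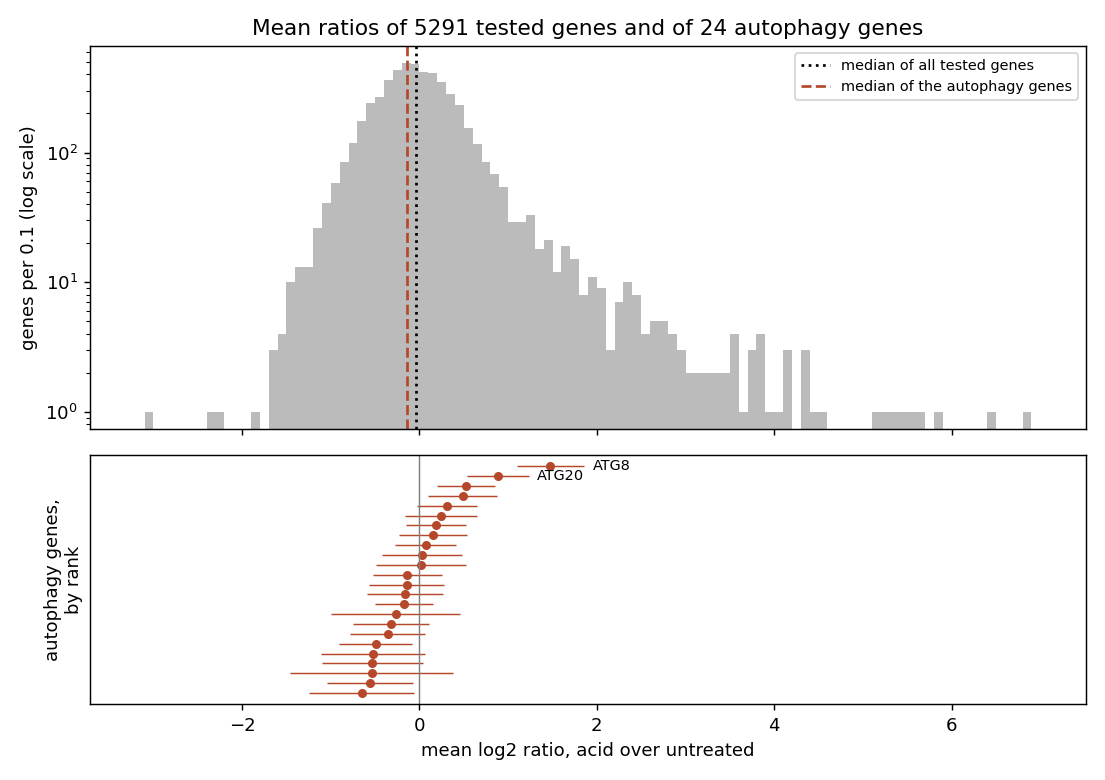
Upper panel, the number of genes (log scale) by mean log2 ratio for 5291 tested genes, with the medians of all genes (-0.04) and of the autophagy genes (-0.14). Lower panel, the mean of each of 24 autophagy genes with its 95% confidence interval from limma; ATG8 and ATG20 are the members past the adjusted threshold.

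Among the ubiquitin-like conjugation genes, ATG8 (YBL078C) had log2 ratios of 1.14 and 1.42 on the Cy5 arrays and of 1.59 and 1.74 on the Cy3 arrays. Every array was above 1, and no array of another member reached the lowest value of ATG8. Its product is the ubiquitin-like protein that is joined to the lipid phosphatidylethanolamine on the growing autophagosome. ATG8 rose by a log2 mean of 1.47 ± 0.26 (SD, n = 4), or 2.78-fold with a 95% confidence interval of 2.14 to 3.61 (limma adjusted p = 0.00271). Of the 5291 genes tested, 166 had a larger mean, which places ATG8 at percentile 96.8. Its call was kept under each of the 15 other settings tried, with adjusted p from 0.00113 to 0.0440 and mean ratios from 1.38 to 1.58.

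The remaining genes of both conjugation systems did not pass. ATG5 (YPL149W), whose product is the partner to which Atg12 is joined, had ratios of 0.51 and 0.57 on the Cy5 arrays and 0.63 and 0.40 on the Cy3 arrays. These 4 values were all above 0 and close together, with a mean of 0.53 ± 0.10 (limma adjusted p = 0.0578). ATG5 passed under 3 of 15 other settings, with adjusted p of 0.0420 with the replicate number as a block, 0.0471 after quantile normalization and 0.0479 without shared variance. It did not pass under the other 12, up to 0.194, with 0.164 when same-numbered arrays were averaged. The correlation within the block was -0.11, and a value below 0 narrows the error of the mean. The block setting was therefore less strict than the main fit, with 13.9% of all genes called, against 10.9%. ATG10 (YLL042C), the conjugating enzyme for Atg12, had 0.50, 0.37, 0.14 and 0.24 in the same order of arrays, again all above 0, with a mean of 0.31 ± 0.16 (adjusted p = 0.188). ATG7 (YHR171W), the activating enzyme shared by both systems, was measured on the Cy5 arrays alone, at 0.36 and 0.57 (limma adjusted p = 0.256 in the fit of genes with at least 2 values). ATG4 (YNL223W), the cysteine protease that processes Atg8 and frees it from lipid, had a mean of 0.03 ± 0.39.

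In the same group ATG12 (YBR217W) and ATG3 (YNR007C) had means below 0. ATG12, the second ubiquitin-like protein, had 0.15 and -0.22 on the Cy5 arrays and -1.14 and -0.91 on the Cy3 arrays. Its values were thus lower on both Cy3 arrays than on either Cy5 array; the mean was -0.53 ± 0.60 (adjusted p = 0.196), and the difference between orientations was 0.99 (limma with a dye term, unadjusted p = 0.0201, adjusted p = 0.648). ATG3, the conjugating enzyme that acts on Atg8, had -0.21, 0.24, -2.07 and -0.11, with 1 array far below the others and a mean of -0.54 ± 1.04 (adjusted p = 0.372). Without the first Cy3 array the mean of ATG3 was -0.03. ATG16 (YMR159C), which binds the Atg12-Atg5 conjugate, had a single value, -2.35, on the first Cy3 array. Over the whole conjugation group, 6 of 8 genes were tested, 1 rose, 5 did not pass and 4 means lay above 0.

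The group of cargo receptors and genes of selective autophagy held the other member that passed. ATG20 (YDL113C) encodes a sorting nexin that works with Snx4 in the Cvt pathway and in the return of proteins from endosomes. Its ratios were 0.67 and 0.80 on the Cy5 arrays and 0.97 and 1.08 on the Cy3 arrays, all well above 0. ATG20 rose by a mean of 0.88 ± 0.18 (SD, n = 4), or 1.84-fold with a 95% interval of 1.45 to 2.34 (limma adjusted p = 0.0145), at percentile 93.1 of the genes tested. The call was lost when the first Cy5 array (adjusted p = 0.0611), the second Cy5 array (0.0702) or the second Cy3 array (0.0934) was left out, without shared variance (0.0585) and with same-numbered arrays averaged (0.0545), although its mean stayed between 0.81 and 0.95. SNX4, which is no member of the list, had 0.38, 0.46, 0.86 and 0.67, a mean of 0.59 ± 0.21 (adjusted p = 0.0562), and passed under 3 of 15 other settings. ATG20 and SNX4 were thus above 0 on every array, and 1 of them passed. SNX41, another sorting nexin gene outside the members, had 0.19, -0.60, 0.22 and -0.38. Its mean was -0.14 ± 0.41 (limma adjusted p = 0.645).

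The receptor genes ATG34 (YOL083W) and ATG19 (YOL082W), which lie next to each other on their chromosome and encode related proteins, did not pass. ATG34, a receptor for alpha-mannosidase during starvation, had 0.86 and 0.41 on the Cy5 arrays and 0.21 and 0.47 on the Cy3 arrays, all above 0. Its mean was 0.49 ± 0.27 (limma adjusted p = 0.106), with an adjusted p of 0.0499978, just under the threshold, without the first Cy3 array. ATG19, the receptor of the Cvt pathway, had 0.07, 0.04, 0.71 and 0.15, a mean of 0.24 ± 0.32 (adjusted p = 0.368). Whether the spots of these related genes also take up each other's transcript was not tested. ATG32 (YIL146C), the receptor for mitochondria, had a mean of -0.32 ± 0.35 (adjusted p = 0.261), and ATG33 (YLR356W), a mitochondrial protein needed for the breakdown of mitochondria, of 0.02 ± 0.48 (adjusted p = 0.958). ATG26 (YLR189C), a sterol glucosyltransferase whose role in the breakdown of peroxisomes is known from Komagataella phaffii, had 0.12, 0.12, -1.45 and 0.14. Its mean of -0.27 ± 0.79 (adjusted p = 0.575) turned to 0.13 without the first Cy3 array. All 6 genes of the group were tested, of which 1 rose and 5 did not pass.

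In the Atg1 kinase complex only 3 of 6 genes were tested and none passed in limma (1, ATG13 (YPR185W), had an unadjusted p under 0.05). ATG13, the regulatory subunit whose dephosphorylation is known to start autophagy, had -1.12 and -0.58 on the Cy5 arrays and -0.49 and -0.03 on the Cy3 arrays. All values were below 0, but they were spread from near 0 to below -1, with a mean of -0.56 ± 0.45 (unadjusted p = 0.0313, adjusted p = 0.130). ATG17 (YLR423C) and ATG31 (YDR022C), of the scaffold that starvation-induced autophagy uses, had means of -0.14 ± 0.11 (n = 3, adjusted p = 0.594) and 0.19 ± 0.15 (n = 4, adjusted p = 0.394). ATG1 (YGL180W), the kinase itself, was measured on the Cy5 arrays alone, at 0.01 and 0.35. ATG29 (YPL166W), the remaining scaffold subunit, had -2.40 and -0.58 on the first and the second Cy3 array, and ATG11 (YPR049C), the scaffold of selective autophagy, had -0.98 on the second Cy5 array and -3.08 on the first Cy3 array. In the limma fit of genes with at least 2 values, ATG1, ATG11 and ATG29 had adjusted p of 0.641, 0.109 and 0.147.

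Of the genes for Atg9 vesicles and their partners, 5 of 6 were tested and none passed in limma (1, ATG2 (YNL242W), had an unadjusted p under 0.05). ATG2, which encodes the lipid transfer protein that feeds the growing membrane, had -0.35 and -0.25 on the Cy5 arrays and -0.98 and -0.41 on the Cy3 arrays. All 4 values were below 0, with a mean of -0.50 ± 0.33 (unadjusted p = 0.0261, adjusted p = 0.119). ATG23 (YLR431C), a peripheral protein of Atg9 traffic, had -0.03, -0.71 and -0.85 and no value on the first Cy3 array; its mean was -0.53 ± 0.44 (n = 3, adjusted p = 0.184). ATG27 (YJL178C), a membrane protein of the same traffic, had a mean of -0.17 ± 0.35. The related phosphoinositide-binding proteins of ATG18 (YFR021W) and ATG21 (YPL100W) had means of 0.07 ± 0.18 and 0.16 ± 0.27, with 95% intervals from -0.28 to 0.42 and from -0.23 to 0.54. ATG9 (YDL149W), the transmembrane protein that gives the vesicles their name, had a single value, -1.03, on the first Cy3 array.

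The phosphatidylinositol 3-kinase genes serve endosomal sorting as well as autophagy. VPS15 (YBR097W), the regulatory subunit, had -0.10, -0.10, -0.81 and -0.43, a mean of -0.36 ± 0.34 (limma adjusted p = 0.216). VPS30 (YPL120W) had a narrow set of values, from -0.31 to -0.03, with a mean of -0.18 ± 0.11 (adjusted p = 0.405). VPS34 (YLR240W), the kinase, had 0.32 on the second Cy5 array and 0.22 on the first Cy3 array, and ATG14 (YBR128C), the subunit specific to autophagy, a single value of -0.91 on the latter array. VPS34 had a limma adjusted p of 0.456 in the fit of genes with at least 2 values. VPS15 and VPS30 lay below 0 on every array and neither passed.

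At the vacuole, ATG15 (YCR068W), the lipase that opens the delivered vesicles, had -0.50 and -0.41 on the Cy5 arrays and -1.54 and -0.17 on the Cy3 arrays. This was the lowest mean of the tested members, -0.65 ± 0.60 (unadjusted p = 0.0356, limma adjusted p = 0.138), and it was -0.36 without the first Cy3 array. ATG22 (YCL038C), an exporter of amino acids from the vacuole, had a mean of -0.14 ± 0.27 (adjusted p = 0.592) with a 95% interval from -0.52 to 0.25.

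Several of the low values above came from a single array. Of the 22 members with 4 values, 10 had their lowest value on the first Cy3 array, against 33.4% of the 4896 genes with 4 values. The same array held the highest value for 4 members, against 35.6% of those genes. On that array 3 members (ATG3, ATG26 and ATG15) lay more than 1 log2 unit below the mean of the other 3 arrays, or 13.6%, near the 13.7% of all genes with 4 values. Among the members with fewer than 3 values, the 3 with a single value (ATG9, ATG14 and ATG16) all had it on this array, all below 0. Among all 5799 genes, 102 had a value on this array alone, of which 100 were below 0, with a median of -1.93. On the second Cy3 array alone, all 8 such genes were below 0, with a median of -0.75. On the first and the second Cy5 array alone, 38.3% of 60 and 35.1% of 37 such genes were below 0. ATG8 and ATG20 had means of 1.44 and 0.85 without the first Cy3 array.

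**Figure D3:**
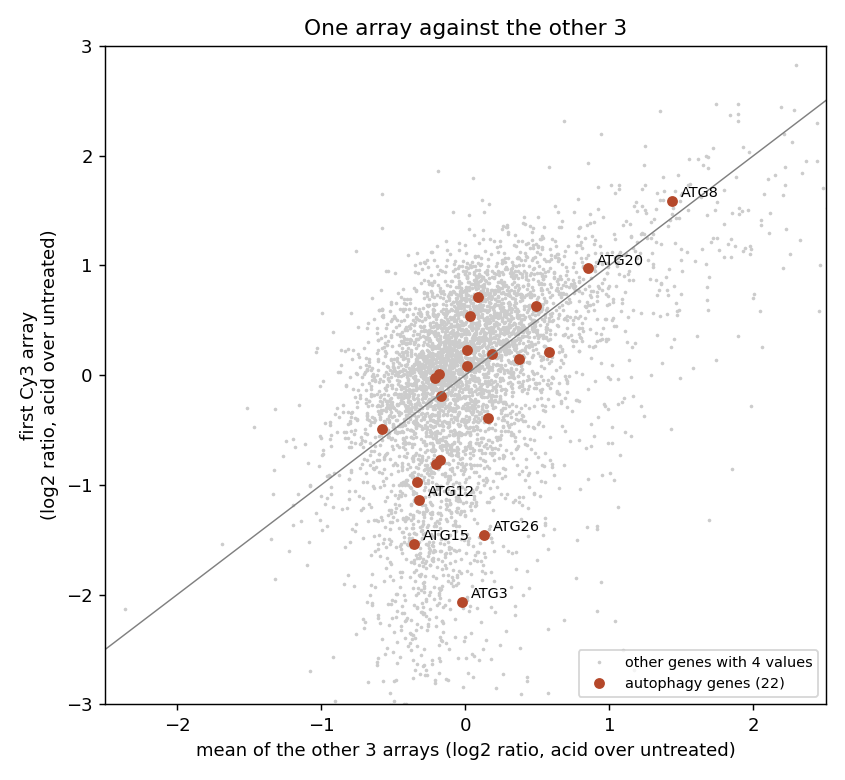
The log2 ratio on the first Cy3 array (vertical axis) against the mean log2 ratio of the other 3 arrays (horizontal axis) for the 22 autophagy genes with 4 values (large points) and for the other genes with 4 values (small points); the line marks equality, and 111 genes, none of them a member, lie outside the axes. ATG8 and ATG20 lie near the line, while ATG3, ATG26 and ATG15 lie more than 1 unit below it.

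Longer members tended to have lower ratios, length being that of the coding sequence. Across the 24 tested members, which share the same 4 arrays, Spearman's rho between the mean ratio and the coding length was -0.41, against -0.06 across 4912 tested genes with a known length. The 3 members longer than 3000 bases (ATG2, VPS15 and ATG26) all had means below 0, and ATG8, of 354 bases, was the shortest of them all. Of the 8 tested members under 1000 bases, 5 had means above 0 and 3 (ATG3, ATG12 and ATG27) below. On the first Cy5 array the rho over all genes was -0.26, and on the other arrays it was between -0.02 and 0.01; over the 22 members with 4 values it was -0.54, -0.54, -0.33 and -0.18 on the 4 arrays. After the trend of each array on coding length was removed, a step chosen after the data were seen, the mean of ATG2 turned from -0.50 to 0.02 (limma adjusted p = 0.948) and that of VPS15 from -0.36 to 0.11 (adjusted p = 0.690). The trend was fitted over all genes of each array and did not run in 1 direction. Its removal raised ATG10, of 504 bases, from 0.31 to 0.37, but lowered ATG34, of 1239 bases, from 0.49 to 0.37. The rho of -0.06 across genes thus does not measure the size of this trend, which is not particular to the members. After its removal the median of the members was -0.01, and their rho with length -0.23. ATG8 and ATG20 still passed, with means of 1.56 and 0.85 (adjusted p = 0.00282 and 0.0151).

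**Figure D4:**
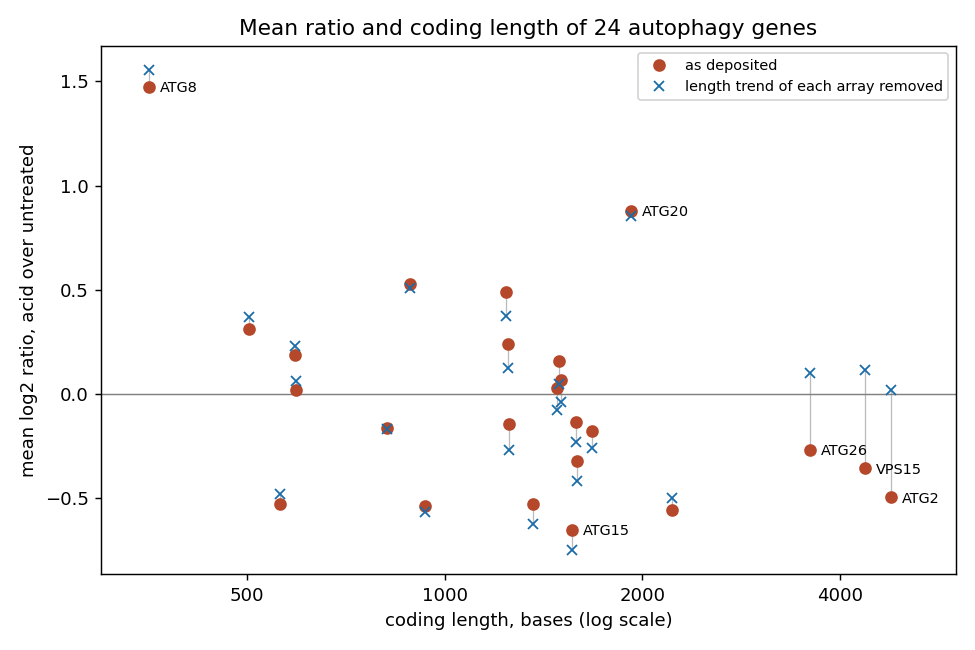
The mean log2 ratio (vertical axis) of 24 tested autophagy genes against their coding length in bases (log scale), as deposited (circles) and with the length trend of each array removed (crosses). ATG2, VPS15 and ATG26, the longest, move from below 0 to slightly above it, while ATG8 and ATG20 change by less than 0.1.

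The genes next to ATG8 and ATG20 all had mean ratios below 0. NUP170 and ILS1, the protein-coding genes on either side of ATG8, encode a nuclear pore protein and a tRNA synthetase. NUP170 had a mean log2 ratio of -0.57 ± 0.59 (limma adjusted p = 0.171), while ILS1 fell to -0.90 ± 0.27 (adjusted p = 0.0186). YDL114W and TRM3, on either side of ATG20, had means of -0.27 ± 0.14 (adjusted p = 0.235) and -0.71 ± 0.65 (n = 3, adjusted p = 0.168).

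Other genes of the pathway were described from 6 lists of non-members, with 70 of 84 genes tested in all. These lists were chosen with earlier results of these data known. Of the 70 genes, 6 rose and none fell in limma, or 8.57%, near the 10.9% of all genes. At an unadjusted p of 0.05, 15 were higher and 7 lower. The shares of all genes to set beside each list are those given above, 8.85% higher and 2.02% lower, or 17.7% and 12.2% at the unadjusted p. Of 21 genes of nutrient signalling upstream of Atg1, 17 were tested, while TOR1, TOR2, KOG1 and SNF1 had too few values. Among the 17 tested, 1 rose and none fell (3 higher and 3 lower at an unadjusted p of 0.05), with a median of -0.08. LST8, a subunit shared by both TOR complexes, had 1.55, 2.04, 1.69 and 1.80, and rose by 1.77 ± 0.21 (adjusted p = 0.00111). It kept its call under each of the 15 other settings. TPK2 and BCY1, also higher at the unadjusted p, were above 0 on every array. Their means were 0.62 ± 0.24 and 0.55 ± 0.15 (limma adjusted p = 0.0527 and 0.0568). The 3 lower at the unadjusted p, TCO89, NPR3 and RIM15, were below 0 on every array. These 3 had means of -0.91 ± 0.94, -0.74 ± 0.49 and -0.53 ± 0.20 (limma adjusted p = 0.144, 0.0776 and 0.0714). TCO89 had -2.285 on the first Cy3 array, and its mean was -0.45 without that array.

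Of 18 regulators of ATG transcription and messenger RNA, 14 were tested, while RPH1, DHH1, DCP2 and PSP2 had too few values. Among the 14 tested, 3 rose and none fell, or 21.4% against 8.85% of all genes higher. At an unadjusted p of 0.05, 4 were higher and 0 lower, against 17.7% and 12.2% of all genes. The median was 0.05. DED1, an RNA helicase of translation initiation, had 1.38, 2.33, 1.29 and 2.62 and rose by 1.91 ± 0.67 (limma adjusted p = 0.00808). FKH2, a forkhead transcription factor, rose by 1.09 ± 0.51 (adjusted p = 0.0280) and MSN4, a general stress transcription factor, by 0.78 ± 0.35 (adjusted p = 0.0414). All 3 calls were lost without shared variance (adjusted p = 0.108, 0.147 and 0.142), and those of FKH2 and MSN4 also without the second Cy5 array (0.0911 and 0.134) and without the second Cy3 array (0.116 and 0.0871). The call of MSN4 was also lost without the first Cy5 array (0.164), with same-numbered arrays averaged (0.0919) and with the length trend removed (0.0517). Of 15 other settings, DED1 passed under 14, FKH2 under 12 and MSN4 under 9. MSN2, of the same list, had a mean of -0.02 ± 0.14 (limma adjusted p = 0.933). UME6, a repressor of ATG8 in growing cells, had -1.06, -0.69, -1.51 and 0.58, with a mean of -0.67 ± 0.90 (adjusted p = 0.224). It lay below 0 on 3 arrays and above 0 on the second Cy3 array, and its mean was -0.39 without the first Cy3 array. SIN3, RPD3 and PHO23, of the same list, had means of -0.50 ± 0.73, 0.06 ± 0.56 and -0.13 ± 0.19 (limma adjusted p = 0.275, 0.875 and 0.559). Whether UME6 bears on the ratio of ATG8 was not tested.

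Cargo enzymes and vacuolar hydrolases had the highest median of the 6 lists, 0.49 over 8 tested genes, of which 2 rose and none fell, or 25.0% against 8.85% of all genes higher (5 higher and 0 lower at an unadjusted p of 0.05, against 17.7% and 12.2% of all genes). The lists were not tested as sets. PRB1, the vacuolar proteinase B, had 0.87, 1.01, 0.45 and 1.22 and rose by 0.89 ± 0.33 (limma adjusted p = 0.0251). PBI2, an inhibitor of that proteinase, rose by 0.76 ± 0.36 (adjusted p = 0.0451). Both calls were lost when either Cy5 array or the second Cy3 array was left out, with same-numbered arrays averaged and without shared variance. Without the first Cy3 array 4 genes of the list passed, and the share of all genes called was then 17% (12.2% higher), against 10.9% in the main fit. APE1, the main cargo of the Cvt pathway, had 1.16, 1.64 and 0.72 on 3 arrays but -2.69 on the first Cy3 array, with a mean of 0.21 ± 1.97 (adjusted p = 0.861). AMS1, the alpha-mannosidase cargo of Atg19 and Atg34, had 1.34, 1.43, -0.21 and 0.53 (mean 0.78 ± 0.77, adjusted p = 0.142).

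None of the 15 tested later-numbered autophagy genes and accessory factors passed in limma (3 higher and 2 lower at an unadjusted p of 0.05), with a median of -0.07. SNX4, given above, and CUE5, a receptor for ubiquitinated aggregates, with 0.69 ± 0.39 (adjusted p = 0.0667), had the smallest p. Without the first Cy3 array, 2 genes of this list passed, and 17% of all genes did. None of 13 tested genes of vacuolar tethering and fusion passed (0 higher and 1 lower at an unadjusted p of 0.05), with a median of -0.26. VAM6, a subunit of the HOPS tether also called VPS39, had -0.37, -0.61, -1.59 and -0.86, all below 0, with a mean of -0.85 ± 0.53 (adjusted p = 0.0622). It passed under 5 of 15 other settings, with adjusted p from 0.0140 to 0.204 over the 15. YPT7, the Rab protein of vacuolar fusion, had a mean of -0.45 ± 0.44 (adjusted p = 0.184). None of 3 tested vacuolar amino acid exporters passed (0 higher and 1 lower at an unadjusted p of 0.05), with AVT7 at -0.59 ± 0.28 (adjusted p = 0.0680) and AVT6 at -0.22 ± 0.39 (adjusted p = 0.458).

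**Figure D5:**
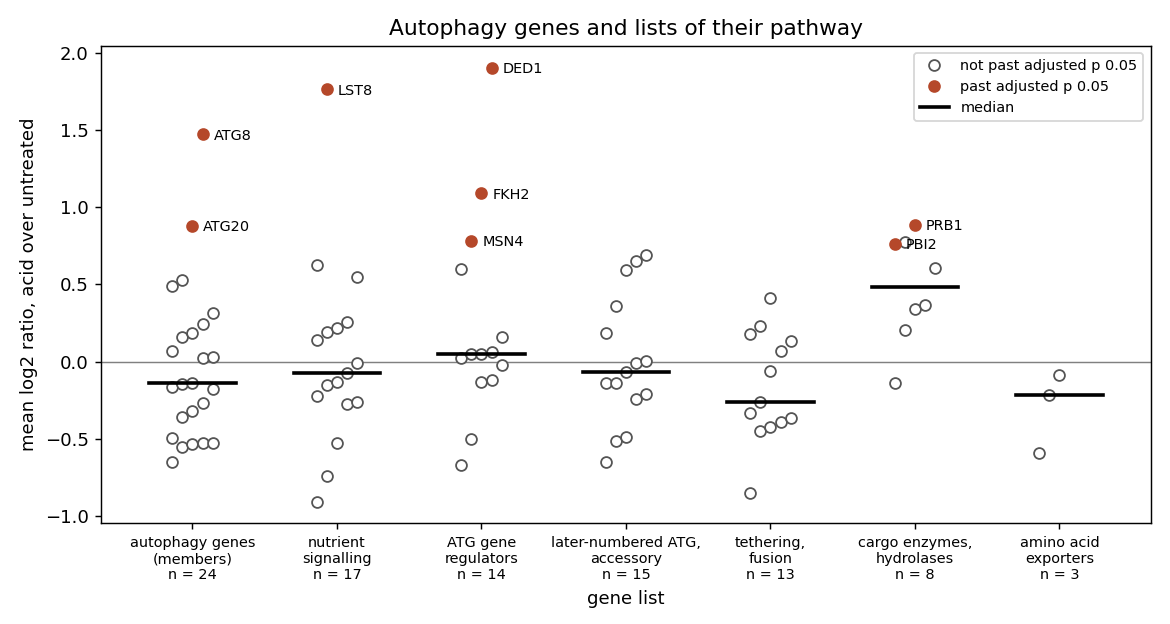
The mean log2 ratio (vertical axis) of each tested gene of the autophagy list and of 6 lists of pathway genes outside it, with the median of each list (bars); filled points are genes past an adjusted p of 0.05. ATG8 and ATG20 stand at the top of the autophagy list, and the cargo and hydrolase list has the highest median, 0.49.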

How the data were processed

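The table the authors deposited holds, for each array, a single signed value per gene with array medians near 0, treated here as a log2 ratio; base 2 is an assumption, and another base would change every fold. Per the labels' protocols, labelling was indirect and extraction used acid phenol. How the arrays were scanned, corrected, normalized and filtered is not given in the sources used here. Array labels number the ura3 allele differently on each array. Arrays of opposite dye orientation correlated above 0 and were taken as already turned by the authors. Symbols and coding lengths came from the RefSeq gene table of assembly R64, which held all 32 members and 5316 of 5799 names.

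An intercept was fitted to the ratios of the 5291 genes with at least 3 values, with limma 3.58.1 in R 4.3.3 (lmFit and eBayes; 3.34 prior degrees of freedom), two-sided, with Benjamini-Hochberg adjustment over all genes. A second fit had a dye term, and another took genes with at least 2 values. The fit was also run on simulated ratios with independent arrays of equal spread, unlike the arrays here, and no support is drawn from that run. The members and lists were chosen with earlier results of these data known. Members past an adjusted or unadjusted p of 0.05 and the 5 highest and 5 lowest means are given on every array. List genes past the adjusted threshold, or the 2 with the smallest p, are given by value. Members with fewer than 3 values were added after their values were seen. So were ATG19, ATG26, VPS15, UME6, SIN3, RPD3, PHO23, APE1, AMS1, SNX41, MSN2, TPK2, BCY1, TCO89, NPR3 and RIM15. Lists got no set test, and promoter sequences were not analysed here. Same-numbered arrays, with a correlation of 0.252 between their deviations from orientation means, were not taken as pairs.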

Additional observations from a re-analysis of the deposited data

Results flagged for a closer look

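ATG26 had 1 array far from the others, the first Cy3 array, at -1.45 against 0.12 to 0.14, a gap of 0.984 of its whole range. ATG27 had the second Cy3 array apart, at -0.69 against -0.03 to 0.03 (0.913 of the range), and ATG19 had the first Cy3 array apart, at 0.71 against 0.04 to 0.15 (0.833 of the range). Chance alone sets about 1 in 20 groups apart in this way, and 8.19% of all genes with 4 values were, against 3 of 22 members.

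ATG33, ATG4 and ATG27 had opposite signs by dye orientation on every array. ATG33 had 0.31 and 0.55 on the Cy5 arrays and -0.39 and -0.38 on the Cy3 arrays, a difference of 0.816 between the means of the orientations (limma with a dye term, adjusted p = 0.665). ATG4 was lower on the Cy5 arrays, at -0.44 and -0.04, than on the Cy3 arrays, at 0.09 and 0.51, a difference of -0.539 (adjusted p = 0.685). ATG27 had values of 0.02 and 0.03 against -0.03 and -0.69, a difference of 0.387 (adjusted p = 0.764). None of the 3 differences passed, and such opposite signs were found for 8.21% of all genes with 4 values.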

How the results depend on the processing

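Of the 11 members given on every array by rule, ATG8 kept its call under all 15 other settings and ATG20 under 10; ATG5 gained a call under 3 and ATG34 under 1. ATG2 changed sign, to 0.018, with the length trend removed, and the list's median is 0.14 with the ratios read as untreated over acid. The median of the members was -0.058 over genes with 4 values, -0.010 with the length trend removed, and -0.18 to -0.0072 with single arrays left out. Members called higher numbered 1 with same-numbered arrays averaged and 1 to 3 with single arrays left out, and none was called lower (0 in each). Over all genes, calls higher numbered 306 with same-numbered arrays averaged, 188 without shared variance and 176 to 645 with single arrays left out. Calls lower numbered 207 with a dye term, 71 with same-numbered arrays averaged, 189 with arrays scaled, 268 after quantile normalization, 16 without shared variance and 11 to 254 with single arrays left out. With the replicate number as a random block, 3 members and 557 genes were called higher and 176 genes lower. This setting was less strict than the main fit, since the correlation within the block was below 0. The numbers are not known to pair the arrays. Over the 15 settings the lists of non-members had 1 to 6 calls for nutrient signalling, 0 to 4 for regulators, 0 to 4 for cargo and hydrolases, 0 to 2 for later-numbered genes and 0 to 1 each for tethering and exporters, against 1, 3, 2, 0, 0 and 0. The share of all genes called ran from 3.53% without the second Cy3 array to 17% without the first Cy3 array. It was 15.3% after quantile normalization, the setting with 6 calls for nutrient signalling, against 10.9% in the main fit. If same-numbered arrays share their RNA, n is 2. The causes of these changes were not tested.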
